A study of Homo sapiens with 26 samples.

Results

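C4 and A7 are 2 clones of the human erythroleukemia line TF-1, an established line that needs the cytokine GM-CSF to grow. The labels give both as wild type for TET2 (TET2 +/+), an enzyme that oxidises methylated cytosine in DNA. They are the WT side of a study that set TET2 knockout clones (TET2 -/-; F4 and A12) against them. Clones received 200 nM 5-azacytidine (Aza), a cytidine analogue that lowers DNA methylation, or its solvent DMSO, on 3 consecutive days. Cells were harvested 72 h and 264 h after the first dose. The comparison is C4 against A7 at matched harvests: 72 h in DMSO, 72 h in Aza, 264 h in DMSO and 264 h in Aza, all in experimental batch 1. This gave 4 pairs, 8 of the 26 libraries of the series. Each arm is 1 clone, so harvests are not replicate clones. The p-values rest on the spread between 4 matched differences, which edgeR moderates with the spread of all genes tested. They do not measure a spread between clones. How the clones were derived is not given in the sources used here.

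Clones grown from single cells of a cancer line can differ in chromosome content, in which genes are silenced, and in how far they lean toward one blood lineage. A gained or lost stretch of chromosome usually moves the RNA of most genes along it by a similar factor, whereas silencing or activation acts on single genes or small clusters. TF-1 cells carry red cell, mast cell and granulocyte features at the same time.

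The 8 libraries held 25428382 to 28376767 counts each, with a median of 27405091, and 3 counts, taken as the floor of detection, corresponded to 0.106 to 0.118 counts per 1000000 counts (CPM). This floor covers counting error only. The erythroid regulator GATA1 was present at 102 CPM in C4 and 99.5 CPM in A7, and the progenitor antigen CD34 at 262 CPM in C4 and 317 CPM in A7. TET2 was at 28.4 CPM in C4 and 26.5 CPM in A7 (log2 difference 0.10 ± 0.05 SE, adjusted p = 0.194, not called). The maintenance methyltransferase DNMT1 was at 505 CPM in C4 and 502 CPM in A7 (log2 difference 0.01 ± 0.03 SE, adjusted p = 0.919, not called).

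The pre-treatment libraries of both clones (1 each) were left out because their labels look exchanged. In that labelled pair, C4 minus A7 had the opposite sign to the 4 later pairs for 2523 of 3157 genes called below (79.9%) and for 261 of 279 called genes that differed at least 2-fold (93.5%). Over all genes tested the share was 61.7%. ENAH stood at 0.267 CPM in the pre-treatment library labelled C4 and 37.2 CPM in the one labelled A7, the reverse of every later pair. Labels were kept as given, and no value below uses these libraries unless it says so.

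Of 16054 genes tested, 3157 differed between the clones, 19.7% of those tested, with 1655 higher (10.3%) and 1502 lower (9.36%) in C4. Calls are at a Benjamini-Hochberg adjusted p under 0.05 from edgeR's quasi-likelihood test with harvest as a term, and every adjusted p below is from that test unless another is named. Each SE is the size of the fitted log2 difference over the square root of the F statistic of its test. It is thus a rescaled test statistic and can understate the error of genes with few counts in either clone. Most differences were small: the median size was 0.28 on the log2 scale, and 2426 of the calls (76.8%) were under 1.5-fold. A difference of 2-fold or more was found for 279 called genes (1.74% of those tested), 131 higher and 148 lower in C4. The difference had the same sign in all 4 pairs for 2961 called genes (93.8%, against 35.8% of all genes tested). DESeq2 called 1808 genes, and the same edgeR test without a harvest term called 514. Without the 264 h DMSO pair, 2117 were called.

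Whole stretches of 2 chromosomes stood higher in C4. On a fixed grid of 20 Mb bins (hg19), the median C4 minus A7 difference of coding genes passed 0.2 in size, with one sign in all 4 pairs, in 2 of 154 bins. The other 152 bins lay between -0.08 and 0.10. The first 20 Mb of chromosome 12 stood at 0.56 over 123 genes, a ratio of 1.48, and the last stretch of chromosome X, from 140 Mb, at 0.58 over 72 genes, a ratio of 1.49. By pair, in the order 72 h DMSO, 72 h Aza, 264 h DMSO and 264 h Aza used throughout, the chromosome 12 bin read 0.59, 0.56, 0.58 and 0.58 and the chromosome X bin 0.56, 0.57, 0.58 and 0.59. The SD over pairs was 0.0115 and 0.0146. The bins were chosen for their level and for one sign in all 4 pairs, so their levels and the share of their genes called carry no test. The 2 bins held 257 tested genes of all types, of which 204 were called higher and 7 lower in C4 (82.1% called).

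**Figure D1:**
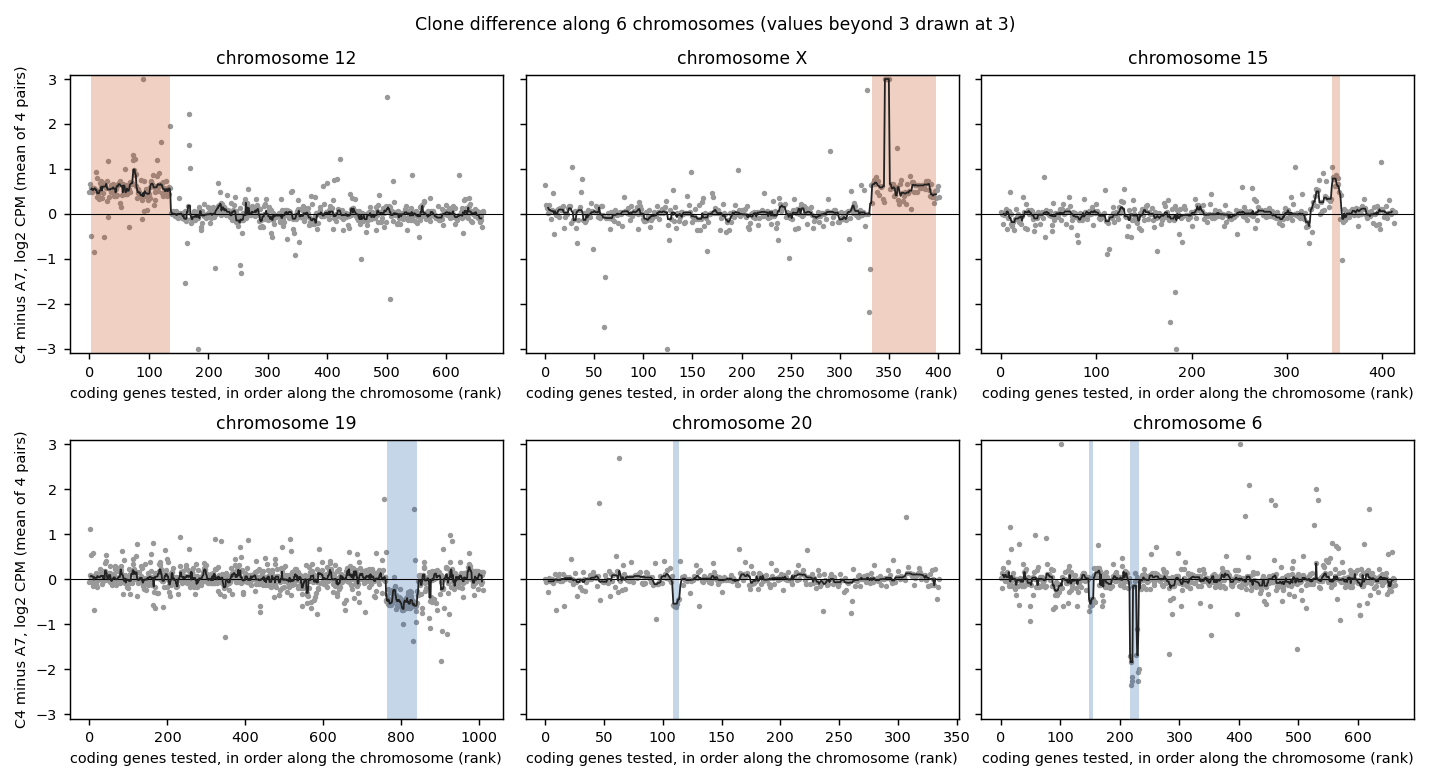
C4 minus A7 log2 CPM, as the mean of 4 pairs less the autosomal median (vertical axis), for each tested coding gene in its order along 6 chromosomes (horizontal axis, rank); the line is the running median of 7 genes and shading marks runs higher (red) or lower (blue) in C4. The left end of chromosome 12 and the right end of X sit near 0.56 and 0.59 as plateaus, while the class II stretch of chromosome 6 falls to -1.69 with genes near 0 between.

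A running median over 7 neighbouring genes, added after the grid had been examined and carrying no test, drew the borders more closely and found shorter stretches. It marked 7 runs of at least 6 genes. Runs were chosen for their level, so counts of their genes on one side of 0 are descriptions. The chromosome 12 run covered 134 coding genes of the short arm, 569530 to 26278060, and its inner end was sharp: BHLHE41, a clock-linked repressor and its last gene, differed by 1.96, while ITPR2, an intracellular calcium channel that comes next, differed by 0.02. Its outer end was not an edge, since KDM5A, a histone demethylase gene, and CCDC77 just before it differed by 0.66 and 0.57, and its first gene, B4GALNT3, a glycosyltransferase gene, by -0.50. Of its genes, 128 of 134 lay above 0 and their lower and upper quartiles were 0.45 and 0.67. The rest of chromosome 12 stood at -0.01 (529 genes). The chromosome X run covered 66 genes of the end of the long arm, 147582139 to 154468098, with 66 of 66 above 0. Genes next to it also differed, FMR1, an RNA-binding protein gene, by 0.64 before it and the chloride channel gene CLIC2 by 0.62 after it, so the ends of this run were not sharp.

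Shorter runs lay on chromosomes 15, 19, 20 and 6. On 15q, 10 genes from 84841242 to 86292586 stood at 0.73, among them SEC11A, a signal peptidase subunit, at 0.63 and PDE8A, a cAMP phosphodiesterase, at 0.50. Its neighbours on the inner side, such as HDGFL3 (0.33) and TM6SF1 (0.29), were higher by less, so this border was not sharp. On 19q, 78 genes from 48684027 to 51298481 stood at -0.49, with 75 of 78 below 0, and the DNA ligase gene LIG1 just before them differed by -0.48 as well. On 20q, 6 genes from 30102231 to 30422492 stood at -0.56, all 6 called lower in C4, and PDRG1 beyond them differed by 0.05. On 6p, 8 genes from MRPS18B to TUBB, 30585486 to 30693203, stood at -0.51, with 7 of 8 below 0 and TUBB itself at 0.04, whereas PPP1R10 just before them differed by 0.01. The last run, also on 6p, held the class II genes and is described with them, since its members did not share one level.

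The knockout clones, harvested in the same batch, gave each clone its own level against the mean of the other 3, over the 3 harvests in which all 4 clones passed quality control. A clone far above or below the rest shifts the mean used for the others. Levels of opposite sign in the others follow largely from that and do not show a change of their own. C4 stood apart on 12p (0.48 to 0.52) and Xq (0.50 to 0.53), with A7 at -0.26 to -0.22 and -0.26 to -0.22 and the knockout clones all below 0. C4 also stood apart on 15q (0.62 to 0.66), on 19q (-0.55 to -0.52) and on the MRPS18B to TUBB run (-0.50 to -0.44). On 20q it was A7 that stood apart, at 0.46 to 0.57, and C4 (-0.30 to -0.17) lay with F4 (-0.21 to -0.09) and A12 (-0.17 to -0.11). Copy number was not measured in these data.

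**Figure D2:**
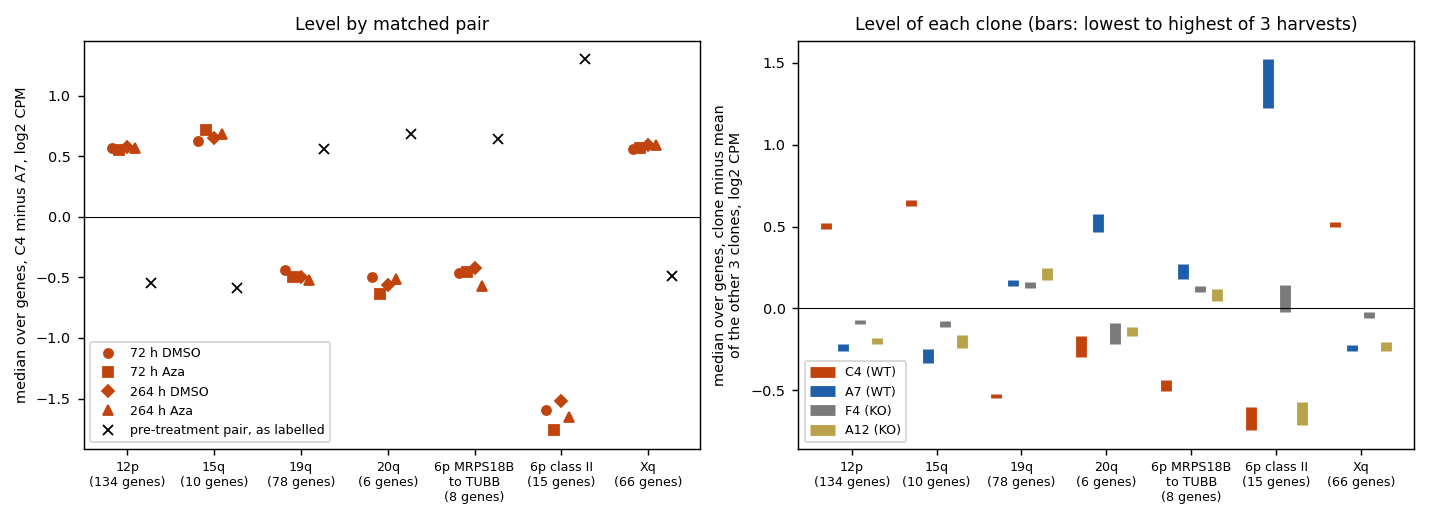
Left, median C4 minus A7 log2 CPM of the genes of each run in each matched pair, with the labelled pre-treatment pair as a cross; right, each clone's level against the mean of the other 3 clones, with bars from the lowest to the highest of 3 harvests. Points of the 4 pairs lie close together in each run, from 0.55 to 0.57 on 12p, the cross lies on the other side of 0 in every run, and A7 is the clone that departs on 20q.

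Genes with a known role in growth and metabolism lay on these stretches. On 12p, the glycolytic enzyme GAPDH was at 2369, 2258, 2425 and 2333 CPM in C4, against 1509.9, 1582, 1604 and 1627 CPM in A7, a log2 difference of 0.57 ± 0.03 SE, adjusted p = 1.8e-13. TPI1, which acts a step earlier, was at 832, 806, 807 and 769.9 CPM in C4, against 501, 530.4, 495 and 485 CPM in A7 (0.67 ± 0.03 SE, adjusted p = 2.21e-15). For both genes every C4 library was above every A7 library. The chromatin remodeller CHD4 differed by 0.41, lactate dehydrogenase LDHB by 0.56, the neuronal enolase ENO2 by 1.00, the glucose transporter SLC2A3 by 1.00 and the cell cycle inhibitor CDKN1B by 0.68, all called higher in C4. Of 20 glycolysis genes tested, 8 were called higher and none lower (40% called, against 19.7% of all genes tested). Of those called, 5 lay on 12p (GAPDH, TPI1, LDHB, ENO2 and SLC2A3). The other 3 differed by less: PGK1 by 0.18, SLC2A1 by 0.29 and PFKP by 0.10. Once the level of the surrounding bin was taken out as an offset, GAPDH differed by 0.00 (adjusted p = 0.989) and CDKN1B by 0.11 (adjusted p = 0.12). CCND2, the cyclin D2 gene, lies on 12p too and was lower in C4 in all 4 pairs, at 17.8, 23.2, 17.3 and 12.4 CPM in C4, against 24.4, 28.2, 25.7 and 20.3 CPM in A7 (-0.50 ± 0.06 SE, adjusted p = 8.35e-07).

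The largest difference on 12p was TMEM52B, a membrane protein gene, at 0.778, 0.467, 1.03 and 0.918 CPM in C4 and without a count in any A7 library, which makes it at least 7.12-fold higher against the floor of 3 counts per library. On Xq, the ribosomal protein gene RPL10 was at 3853, 3814, 3757 and 3646 CPM in C4, against 2615, 2945, 2656 and 2496 CPM in A7 (0.49 ± 0.04 SE, adjusted p = 1.32e-11). The actin crosslinker FLNA was at 1347, 1922, 1268 and 1582 CPM in C4, against 813, 1251, 801 and 1040.2 CPM in A7 (0.65 ± 0.03 SE, adjusted p = 5.62e-15), and the Aza libraries stood above the DMSO libraries of the same time in both clones. DKC1, the pseudouridine synthase of telomerase, differed by 0.41 and the cholesterol enzyme NSDHL by 0.66. DKC1 and RPL10 differed by less than their surroundings: with the bin level as an offset DKC1 stood at -0.18, RPL10 at -0.10 and CHD4 on 12p at -0.16.

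Lower in C4 on 19q were the iron store subunit FTL, at 971, 1137, 936 and 1075 CPM in C4, against 1299.6, 1705, 1411 and 1701 CPM in A7 (-0.57 ± 0.04 SE, adjusted p = 5.25e-13), and the death effector BAX, at 39.9, 35.7, 41.7 and 36.6 CPM in C4, against 51.1, 53.3, 56.9 and 53.3 CPM in A7 (-0.48 ± 0.05 SE, adjusted p = 2.64e-09). CLEC11A, a growth factor for blood progenitors, fell furthest of those named there (-0.94 ± 0.03 SE, adjusted p = 4.17e-18) and averaged 84.3 ± 28.4 CPM in C4 and 162 ± 52.1 CPM in A7 (SD over the 4 harvests of each clone). On 20q, the survival factor BCL2L1 was at 184, 169, 182 and 185 CPM in C4, against 243, 275, 265 and 262 CPM in A7 (-0.54 ± 0.04 SE, adjusted p = 1.84e-11). In the knockout clones it ran at 189 to 213 CPM in F4 and 188 to 230.2 CPM in A12, below every A7 library. The spindle factor TPX2 (-0.45), the inhibitor of differentiation ID1 (-0.61) and the signal peptide peptidase HM13 (-0.57) fell with it.

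Most calls lay outside these stretches. Outside the 2 grid bins, 2946 of 15797 genes were called (18.6%), 1451 higher and 1495 lower in C4, with 259 at 2-fold or more. Outside all 7 runs it was 2834 of 15655 (18.1%), and inside them 323 of 399 (81%). Bins and runs were drawn from these same differences, so a high share called inside them follows from that choice. The runs held 13.8% of the genes called higher and 6.32% of those called lower. Of the 279 differences of 2-fold or more, 38 lay in runs, 11 of them in the class II run.

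Class II genes of the major histocompatibility complex were lower in C4. They encode the paired chains that present peptides to helper T cells, with their loading factors. CIITA, the class II transactivator, switches them on by docking on RFX, NF-Y and CREB factors that sit on conserved promoter boxes. Class II members were chosen after their values had been seen, so their count is a description. Of 12 class II genes tested, 11 were called lower in C4 and none higher (91.7% called, against 19.7% of all genes tested). Their median was -1.99, beside -0.00 over all genes tested. HLA-DOB was the exception. The 14 class II genes summed to 295 to 474 CPM per library in C4 and 1018 to 1777 CPM in A7.

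Promoters of 3 of these genes and of HLA-DOB are shown because CIITA acts through shared promoter boxes. They are the reference sequences of RefSeq (GRCh38.p14), not read from these cells. They run 5′ to 3′ from 250 bases before to 50 after the start, and capitals mark 2 motifs searched on both strands, CCAAT (the core that NF-Y binds; ATTGG on the other strand) and TGATGA (within the X box bound by RFX and CREB; TCATCA on the other strand). A match is of these letters only and is no measure of binding. The positions are chr6:32589799-32590098 (minus strand) for HLA-DRB1, chr6:32953048-32953347 (minus strand) for HLA-DMA, chr5:150412861-150413160 (minus strand) for CD74 and chr6:32816953-32817252 (minus strand) for HLA-DOB.
HLA-DRB1: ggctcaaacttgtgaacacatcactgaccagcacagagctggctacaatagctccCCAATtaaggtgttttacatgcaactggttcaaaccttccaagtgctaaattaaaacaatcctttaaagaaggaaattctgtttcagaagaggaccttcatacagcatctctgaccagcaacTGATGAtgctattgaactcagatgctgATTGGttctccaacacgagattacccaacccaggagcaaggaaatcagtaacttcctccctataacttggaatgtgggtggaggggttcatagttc
HLA-DMA: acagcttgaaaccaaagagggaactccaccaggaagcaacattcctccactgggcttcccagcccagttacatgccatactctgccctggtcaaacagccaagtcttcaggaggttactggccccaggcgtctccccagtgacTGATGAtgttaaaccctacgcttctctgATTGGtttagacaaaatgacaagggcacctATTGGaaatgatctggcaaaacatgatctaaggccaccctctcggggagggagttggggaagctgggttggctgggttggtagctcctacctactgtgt
CD74: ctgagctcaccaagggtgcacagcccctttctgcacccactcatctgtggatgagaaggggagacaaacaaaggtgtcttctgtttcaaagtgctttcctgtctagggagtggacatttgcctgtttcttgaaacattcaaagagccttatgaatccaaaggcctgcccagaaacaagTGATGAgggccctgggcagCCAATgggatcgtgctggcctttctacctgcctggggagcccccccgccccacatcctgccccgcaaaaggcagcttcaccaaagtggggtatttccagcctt
HLA-DOB: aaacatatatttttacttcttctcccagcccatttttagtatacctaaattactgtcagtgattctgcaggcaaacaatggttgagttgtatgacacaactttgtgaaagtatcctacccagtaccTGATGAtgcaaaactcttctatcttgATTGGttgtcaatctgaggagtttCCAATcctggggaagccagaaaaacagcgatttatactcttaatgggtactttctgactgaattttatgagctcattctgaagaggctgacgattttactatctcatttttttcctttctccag
In HLA-DRB1 the nearest motif pair starts 27 bases apart, in HLA-DMA 28, in CD74 19 and in HLA-DOB 26. The table held 14 promoters for 13 of the 14 genes. CCAAT was in 12 of them, against 34.6% of all 35116 promoters, and both motifs in 6, against 4.11%. The promoters shown are all among these 6. Those of HLA-DOA, HLA-DPB1, HLA-DQA1 and HLA-DQB1, genes also called lower, held CCAAT but not TGATGA. Neither entry of HLA-DPA1, called lower too, held CCAAT. HLA-DOB, which did not differ between the clones beyond their spread, held both, so these letters did not set it apart from the genes called.

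HLA-DRA, the alpha chain of HLA-DR, was at 219.7, 183, 178 and 121 CPM in C4, against 656, 680.1, 549 and 394 CPM in A7. Every C4 library was below every A7 library, and both clones were lowest at 264 h in Aza. The log2 difference was -1.70 ± 0.04 SE, adjusted p = 1.2e-19. CD74, the invariant chain that guards the peptide groove and the only tested class II gene here on another chromosome (5), was at 78.0, 88.5, 78.6 and 61.4 CPM in C4, against 309, 375, 295 and 234 CPM in A7 (-1.98 ± 0.04 SE, adjusted p = 3.01e-25). The peptide-loading subunit HLA-DMA fell least among those called (-1.10 ± 0.05 SE, adjusted p = 1.35e-16), and averaged 28.4 ± 4.15 CPM in C4 and 60.7 ± 7.72 CPM in A7 (SD over the 4 harvests of each clone). The differences of HLA-DRB1 (-1.85), HLA-DRB5 (-2.39), HLA-DQA1 (-2.38), HLA-DQB1 (-2.17), HLA-DPA1 (-2.26), HLA-DPB1 (-1.99), HLA-DMB (-1.71) and HLA-DOA (-2.20) ran from -1.71 to -2.39. HLA-DRB1 and HLA-DRB5 are near-identical copies, and their split of reads is uncertain. HLA-DOB was at 4.60, 5.10, 4.64 and 4.24 CPM in C4, against 4.75, 4.53, 5.75 and 5.51 CPM in A7 (-0.15 ± 0.12 SE, adjusted p = 0.429, not called).

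Genes that lie between the class II genes kept levels close to those of A7. The run holds 15 coding genes, and its lower and upper quartiles were -2.13 and -0.14, further apart than in any of the other 6 runs. The peptide transporter TAP1 (0.13) and the immunoproteasome subunit PSMB9 (-0.04), both not called, and the bromodomain gene BRD2 (0.04, not called) lie inside it. TAP2 (-0.16) and PSMB8 (-0.14) were called by a small margin, and leaving out 1 pair ended both calls: any pair but that of 72 h in Aza for TAP2 (up to adjusted p = 0.155) and any of the 4 for PSMB8 (up to adjusted p = 0.244). COL11A2, a collagen gene and the next tested beyond HLA-DPB1, differed by 0.00.

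CIITA itself was at 31.1, 22.6, 34.3 and 25.5 CPM in C4, against 82.3, 67.7, 80.4 and 59.5 CPM in A7, with no overlap between the clones and a log2 difference of -1.36 ± 0.05 SE, adjusted p = 2.7e-17. Of its partners, RFX5 differed by 0.03, RFXANK by 0.07, CREB1 by -0.04, NFYB by -0.03 and NFYC by 0.01, none called. RFXAP (-0.28) and NFYA (-0.11) were called lower by little, and leaving out 1 pair ended both calls (up to adjusted p = 0.113 for RFXAP and 0.179 for NFYA, without the 264 h DMSO and the 72 h Aza pair). Of the interferon gamma route that can induce CIITA, the factor IRF1 (0.03) was not called, and the receptor subunit IFNGR2 was lower in C4 (-0.48 ± 0.05 SE, adjusted p = 1.02e-08) while IFNGR1 was not called (-0.00). Lymphoid markers, which would accompany B cells, summed to 17.5 to 25.4 CPM in C4 and 21.2 to 29.04 CPM in A7, with 7 of 21 under the floor in all 8 libraries, and their part in the class II difference was not tested. Of 11 class I pathway genes tested, 1 was called higher (HLA-B, 0.73 ± 0.11 SE, adjusted p = 7.93e-06) and 4 lower, of which HLA-E differed most (-0.25). The share called was 45.5%, against 19.7% of all genes tested.

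Among the 4 clones, A7 was the high one. HLA-DRA ran at 209.8 to 294 CPM in F4 and 97.2 to 163 CPM in A12, and CIITA at 34.1 to 43.3 CPM in F4 and 21.4 to 31.6 CPM in A12. The C4 range overlapped that of each knockout clone for both genes, and no knockout library reached the lowest A7 value of either gene.

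**Figure D3:**
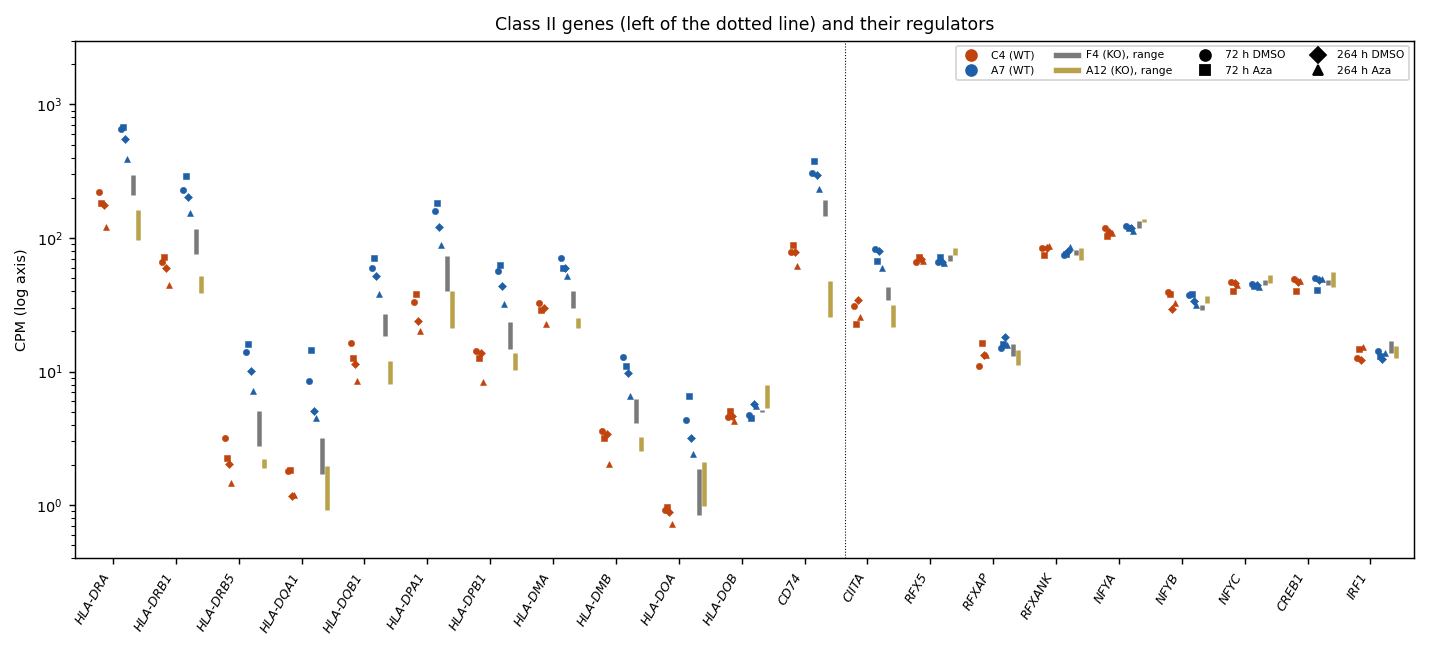
CPM (log axis) of class II genes and, right of the dotted line, their regulators in each C4 (red) and A7 (blue) library, with the ranges of the knockout clones F4 and A12 as bars and the harvest given by the marker. C4 points lie below A7 points without overlap for 11 class II genes and CIITA, and overlap for HLA-DOB and the other regulators.

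Single genes outside the runs differed by more than any stretch. A rule took the 12 largest rises and 12 largest falls outside the grid bins, with one sign in all 4 pairs and at least 1 CPM in the higher clone, so their size is a description. All 24 genes had clone values that did not overlap, which follows largely from that choice, and none lay in a run. The share of genes without overlap was not counted over all genes tested. ENAH, an actin regulator of the Ena/VASP family (chromosome 1, 225674537 to 225840844), was at 37.5, 32.2, 42.7 and 31.9 CPM in C4, against 0.636, 0.475, 0.255 and 0.243 CPM in A7 (6.48 ± 0.13 SE, adjusted p = 2.99e-24). OGFRL1, an opioid growth factor receptor-like gene (chromosome 6, 71998506 to 72018653), was at 16.6, 16.9, 18.5 and 21.5 CPM in C4, against 0.336, 0.256, 0.146 and 0.104 CPM in A7 (6.43 ± 0.17 SE, adjusted p = 1e-21). A7 held both below 1 CPM in every library, and no Aza library of A7 exceeded the DMSO library of the same time for either gene. The knockout clones held ENAH at 24.9 to 33.3 CPM in F4 and 7.53 to 14.6 CPM in A12, so A7 was the lowest of the 4 clones. OGFRL1 was at 16.8 to 18.1 CPM in F4 and 1.84 to 2.81 CPM in A12.

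The milk fat globule gene BTN1A1 was at 11.5, 14.7, 11.2 and 11.5 CPM in C4, against 1.05, 2.63, 1.31 and 0.659 CPM in A7 (3.14 ± 0.17 SE, adjusted p = 1.21e-09), with 0.845 to 2.20 CPM in F4 and 0.609 to 1.88 CPM in A12, so C4 was the highest of the 4 clones. The retinoic acid receptor RARB was at 2.02, 1.52, 1.91 and 2.56 CPM in C4, against 0.262, 0.0730, 0.255 and 0.173 CPM in A7 (3.37 ± 0.29 SE, adjusted p = 4.79e-10). Others higher in C4 were the monocarboxylate transporter SLC16A9 (4.37), the sarcoglycan SGCZ (3.78), PALMD (3.43), the collagen COL5A1 (3.05), ANKEF1 (2.97), the prostaglandin-degrading enzyme HPGD (2.96), the intracellular fibroblast growth factor homologue FGF13 (2.82) and the glycine transporter SLC6A9 (2.72). Most were low: their C4 means ran from 1.18 CPM for SGCZ to 5.66 CPM for SLC6A9.

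Lower in C4, BCHE, which encodes butyrylcholinesterase (chromosome 3, 165490692 to 165555260), had at most 3 counts in any C4 library and 8.22, 4.05, 7.90 and 4.86 CPM in A7 (-6.95 ± 0.28 SE, adjusted p = 6.05e-17). COBLL1, an actin-binding gene (chromosome 2, 165510134 to 165700189), was the only gene under 3 counts in every library of one clone and at 1 CPM or more in every library of the other: it had 0 to 2 counts in C4 and 1.46, 1.83, 1.71 and 1.73 CPM in A7. Fitted differences of such genes depend on the prior count. Their SE comes from the test statistic and can understate the counting error of so few counts. PLP2, a membrane proteolipid gene on the short arm of X, was at 2.09, 1.87, 0.847 and 0.650 CPM in C4, against 20.3, 23.7, 22.6 and 31.7 CPM in A7 (-4.15 ± 0.35 SE, adjusted p = 0.00501), and both knockout clones held it (26.4 to 28.1 CPM in F4 and 27.9 to 35.7 CPM in A12), so C4 was the lowest of the 4 clones. SLC38A1, a glutamine transporter, was at 2.72, 3.43, 1.84 and 0.803 CPM in C4, against 22.2, 23.8, 18.1 and 17.3 CPM in A7 (-3.23 ± 0.17 SE, adjusted p = 1.76e-07). SELENBP1, a selenium-binding protein gene, was at 2.44, 8.14, 3.24 and 6.88 CPM in C4, against 33.0, 46.5, 39.2 and 57.8 CPM in A7 (-3.13 ± 0.22 SE, adjusted p = 0.00238), and its knockout ranges lay below every A7 value. In both clones SELENBP1 was higher in Aza than in DMSO at each time.

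The flippase gene ATP8A1 (-3.85), the Hedgehog effector GLI2 (-3.72), LHFPL6 (-5.21), FAM81A (-3.26), the protease gene TMPRSS15 (-4.64), the retinaldehyde dehydrogenase ALDH1A2 (-2.70) and the cancer-testis gene MAGEB2 (-2.89) were the remaining falls. TMPRSS15 averaged 37.4 CPM in knockout clone A12, against 1.74 CPM in A7.

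**Figure D4:**
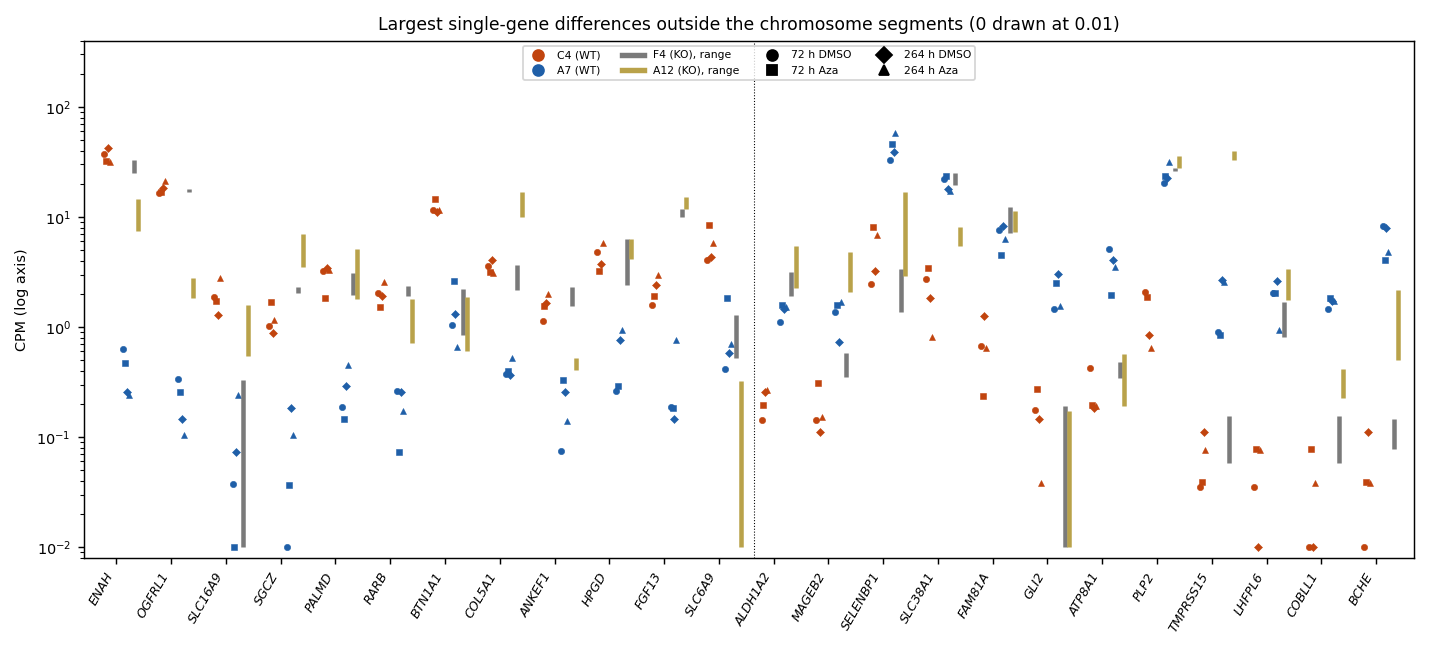
CPM (log axis, 0 drawn at 0.01) of the 24 genes with the largest differences outside the chromosome stretches, 12 higher in C4 left of the dotted line and 12 lower to its right, in each C4 (red) and A7 (blue) library, with the knockout ranges as bars. C4 and A7 do not overlap for any of these genes, which were picked for the size of their difference. The knockout clones side with C4 for some genes and with A7 for others.

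Cancer-testis genes of chromosome X moved in both directions. Within the Xq run, whose level was 0.59, 5 neighbours stood far above it: the GABA receptor subunit GABRA3 (3.75), MAGEA6 (5.57), MAGEA12 (4.82), CSAG1 (5.09) and MAGEA3 (3.94). MAGEA6 was at 68.7, 60.4, 69.4 and 64.3 CPM in C4, against 1.64, 1.06, 1.06 and 1.73 CPM in A7 (5.57 ± 0.09 SE, adjusted p = 1.19e-26). MAGEA3 was at 17.0, 18.0, 23.6 and 19.9 CPM in C4, against 0.748, 1.53, 1.35 and 1.46 CPM in A7 (3.94 ± 0.11 SE, adjusted p = 1.99e-20). MAGEA3, MAGEA6 and MAGEA12 are close copies of each other, and how reads were split among them is uncertain. The knockout clones held MAGEA12 at 59.2 to 61.7 CPM in F4 and 71.6 to 82.4 CPM in A12, above both WT clones. MAGEC1 (-2.18 ± 0.27 SE, adjusted p = 0.0135), MAGEC2 (-1.22), MAGEB1 (-1.43) and MAGEB2, all outside the run, were lower in C4, although MAGEC1 and MAGEC2 lie in the last grid bin of X. The MAGEC1 call was lost without the 72 h DMSO pair (adjusted p = 0.0908). Of 8 MAGE genes tested, chosen after values had been seen, 3 were called higher and 4 lower (87.5% called, against 19.7% of all genes tested).

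Most red cell membrane genes stood higher in C4, by modest amounts. Of 26 genes of the red cell membrane and blood groups, 15 were called higher and 6 lower (80.8% called, against 19.7% of all genes tested), with a median of 0.22, and none lay in a run. The membrane skeleton subunit ADD2 was at 16.0, 33.3, 16.2 and 38.7 CPM in C4, against 5.16, 9.02, 5.97 and 19.0 CPM in A7 (1.45 ± 0.13 SE, adjusted p = 7.38e-05), higher in C4 in all 4 pairs, although C4 in DMSO overlapped A7 at 264 h in Aza. Dematin (DMTN, 0.81) and the spectrin chain SPTB (0.47) were higher too. The glycophorin genes GYPB (-0.92) and GYPE (-0.97) were lower in C4. They belong to a family of near-identical copies, and how reads were split among them is uncertain. GYPE lost its call without the 72 h Aza pair (adjusted p = 0.141) and without the 264 h DMSO pair (adjusted p = 0.0696).

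Of 20 erythroid regulators and receptors, 8 were called higher and 1 lower (45% called, against 19.7% of all genes tested). The erythropoietin receptor EPOR was at 24.0, 33.5, 21.6 and 41.8 CPM in C4, against 11.7, 21.7, 13.9 and 31.8 CPM in A7 (0.64 ± 0.07 SE, adjusted p = 2.26e-06), and the erythroid factor KLF1 differed by 0.32 ± 0.04 SE, adjusted p = 2.97e-07. MYB, which holds progenitors undifferentiated, was the one lower (-0.17). Of 10 hemoglobin genes, 2 were called, both higher (20%, close to the 19.7% of all genes tested). The fetal globin HBG1 was at 9.76, 14.1, 7.11 and 21.6 CPM in C4, against 2.73, 4.46, 2.33 and 11.8 CPM in A7 (1.38 ± 0.13 SE, adjusted p = 1.31e-06). Its near-identical copy HBG2 was at 276, 312, 179.6 and 674 CPM in C4, against 63.7, 119.7, 78.5 and 428 CPM in A7 (1.30 ± 0.29 SE, adjusted p = 0.0788, not called). That outcome depended on the fit. HBG2 was called higher with DESeq2 (adjusted p = 0.000116) and in edgeR without the robust option (adjusted p = 1.18e-09). With all batch 1 post-treatment libraries in the edgeR fit it was called too (adjusted p = 0.0181). HBA1 was higher by little (0.21 ± 0.06 SE, adjusted p = 0.0234), and the call was lost without the 264 h DMSO or the 264 h Aza pair (adjusted p = 0.127 and 0.138). Of 19 heme and iron genes, 6 were called higher, such as the heme enzyme ALAD (0.45), and 2 lower, of which FTL lies on 19q, so 42.1% of these genes were called.

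The mast cell, basophil and eosinophil genes that were called were lower in C4. Of 18 such genes tested, 6 were called lower and none higher, with a median of -0.36 (33.3% called, against 19.7% of all genes tested called and 9.36% called lower). The tryptase genes TPSAB1 (-1.10) and TPSB2 (-0.73), the eotaxin receptor CCR3 (-0.84) and the eosinophil granule protein PRG2 (-1.66) were among them, but these are low genes. PRG2 averaged 0.338 CPM in C4 and 1.20 CPM in A7, was higher in C4 at 264 h in DMSO, and lost its call without either 72 h pair (adjusted p = 0.0606 without DMSO and 0.0712 without Aza). TPSAB1 lost it without the 264 h Aza pair (adjusted p = 0.0917). EPX, CLC and PRG3 of this list did not pass the expression filter and were not tested. Over the harvests EPX averaged 1.12 CPM in C4 and 6.98 CPM in A7. CLC averaged 0.736 and 5.23 CPM, and PRG3 0.714 and 2.71 CPM, in the same order. The other untested members, RNASE2, RNASE3 and CMA1, averaged under 1 CPM in both clones, and only CMA1 was higher in C4. The list summed to 542 to 723 CPM in C4 and 559 to 664 CPM in A7. Most of this sum came from GATA2, which averaged 506 CPM in C4 and 469 CPM in A7 and was not called. The sum therefore says little of the other members.

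Of 14 granulocyte and monocyte genes, 4 were called lower and 1 higher (35.7% called, against 19.7% of all genes tested). MS4A3, a granulocyte progenitor marker, was at 9.91, 11.7, 7.03 and 7.04 CPM in C4, against 19.1, 34.8, 15.6 and 17.3 CPM in A7 (-1.26 ± 0.08 SE, adjusted p = 2.43e-12), without overlap. The granulocyte factor CEBPE was at 0.389, 6.46, 0.147 and 0.650 CPM in C4, against 0.561, 11.2, 0.473 and 2.08 CPM in A7 (-0.99 ± 0.19 SE, adjusted p = 0.000233), and in both clones it was highest at 72 h in Aza. CD33 was lower (-0.34 ± 0.03 SE, adjusted p = 1.01e-08) and lies on 19q, outside the run. Of 20 cytokine receptor and STAT5 genes, 8 were called lower and 1 higher (45% called). The shared beta chain of the GM-CSF receptor, CSF2RB, was at 219, 254, 209 and 199 CPM in C4, against 244, 349, 251 and 239.9 CPM in A7 (-0.29 ± 0.04 SE, adjusted p = 1.52e-06). SOCS1 (-0.39), OSM (-0.39), MYC (-0.20) and PIM1 (-0.15), which respond to cytokine signals, were lower, while BCL2L1 and CCND2 of the same list lie in runs. Stem and progenitor genes (1 higher and 2 lower of 14) and megakaryocyte genes (1 higher and 2 lower of 14) were called about as often as all genes tested (21.4% and 21.4%, against 19.7%).

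The cell cycle genes that were called stood mostly higher in C4. Of 28 G1/S and replication genes, 10 were called higher and none lower, with a median of 0.05 (35.7% called). Over all genes tested 19.7% were called, 10.3% higher and 9.36% lower. The S-phase factor E2F2 differed most, at 24.7, 29.6, 27.1 and 33.4 CPM in C4, against 15.3, 18.9, 15.7 and 21.3 CPM in A7 (0.69 ± 0.06 SE, adjusted p = 1.15e-10). Of 27 G2/M genes, 10 were called higher, led by the mitotic kinesin KIF20A (0.40), and the 1 called lower was TPX2 on 20q, so 40.7% of the G2/M genes were called. Of 22 cholesterol synthesis genes, 8 were called lower (50% called in all), with the synthase HMGCS1 at -0.32, and 3 were higher, one of them NSDHL on Xq. Of 22 adhesion genes, 8 were called lower and 2 higher (45.5% called), with the integrin chains ITGAX (-0.69) and ITGB2 (-0.40) lower.

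Other lists moved in both directions or held few calls. Of 19 genes of the DNA methylation machinery, 3 were called higher and 1 lower (21.1% called, close to the 19.7% of all genes tested). Of 20 HOX genes, 1 was called (5%). It was HOXB9 (-0.27), and not without the 264 h Aza or the 72 h DMSO pair (adjusted p = 0.118 and 0.0801). Of 24 p53 targets, 3 were higher and 4 lower (29.2% called), TIGAR on 12p and BAX on 19q among them. TIGAR lost its call without the 72 h DMSO pair (adjusted p = 0.0605). Interferon response genes went both ways (5 higher and 3 lower of 23, 34.8% called), with OAS3 at 1.00 and XAF1 at -0.84. Imprinted genes (15 tested, 33.3% called) held 1 large difference, DIRAS3 (1.86 ± 0.20 SE, adjusted p = 2.4e-08), and CDKN1C was higher as well (0.76).

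**Figure D5:**
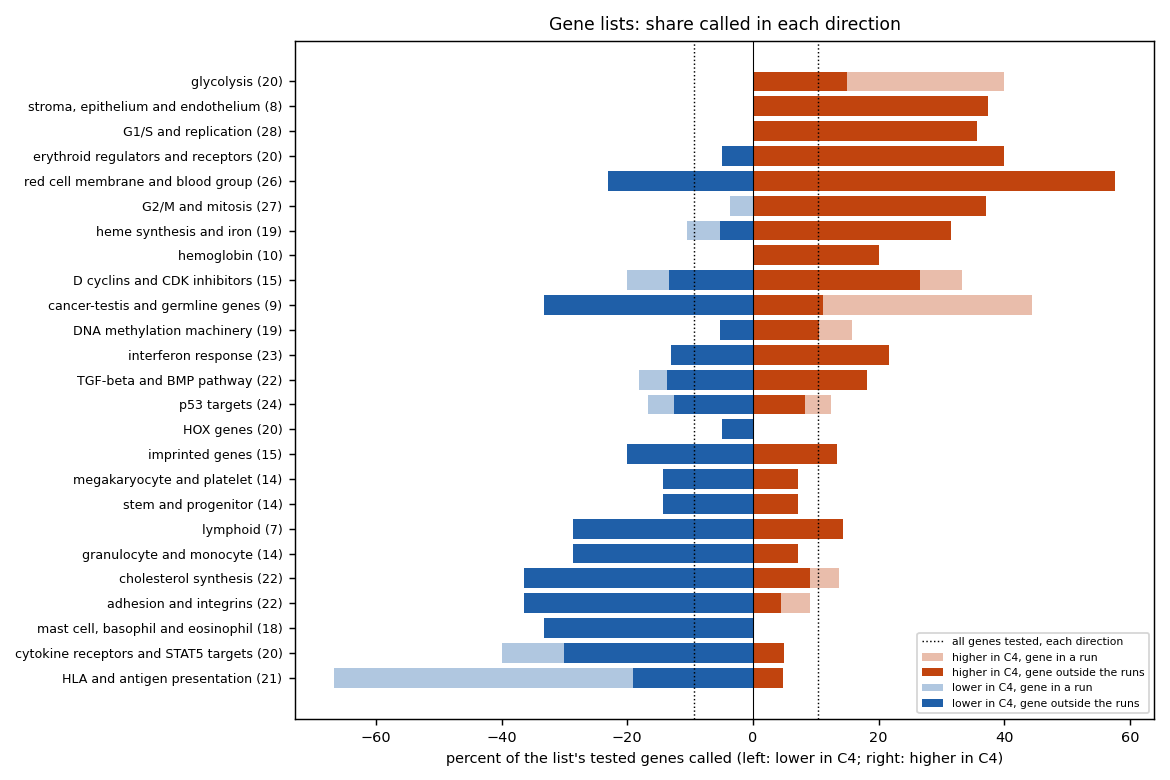
Share of each list's tested genes called higher in C4 (red, right) and lower in C4 (blue, left), with pale parts for genes inside the 7 runs and dotted lines at the share of all genes tested in each direction (10.3% higher, 9.36% lower). Pale parts hold 5 of 8 called glycolysis genes and 10 of 15 called antigen presentation genes, and none of the red cell membrane genes.

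Few genes had a clone difference that depended on treatment or time, in a fit with 2 residual degrees of freedom. The interaction of clone with Aza was called for 1 of 16054 genes (0.00623%), and that with time for 9 (0.0561%). With all batch 1 post-treatment libraries in the fit edgeR called 0 in either test (644 and 753 at an unadjusted p under 0.05), and DESeq2 called 0 for Aza (86 at an unadjusted p under 0.05) and 3 for time. KIT, the stem cell factor receptor, was the Aza gene, at 14.5, 38.0, 17.9 and 18.1 CPM in C4, against 21.7, 28.9, 23.9 and 16.8 CPM in A7. It was higher in C4 than in A7 in both Aza pairs and lower in both DMSO pairs, an interaction of 0.77 ± 0.12 SE, adjusted p = 0.0105.

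Of the time genes, the beta globin HBB was at 36.9, 40.5, 34.8 and 112 CPM in C4, against 27.9, 38.2, 44.6 and 164 CPM in A7, higher in C4 at 72 h and lower at 264 h (-0.71 ± 0.10 SE, adjusted p = 0.00481). The erythroid nuclear protein HEMGN was at 2.94, 24.5, 1.73 and 6.50 CPM in C4, against 1.35, 7.45, 1.82 and 6.49 CPM in A7 (-1.60 ± 0.23 SE, adjusted p = 0.00481), higher in C4 in both 72 h pairs and about level with A7 at 264 h. The scavenger receptor CD36 was at 33.1, 59.1, 25.3 and 65.1 CPM in C4, against 14.6, 24.4, 14.2 and 48.2 CPM in A7 (-0.64 ± 0.11 SE, adjusted p = 0.036), higher in C4 in all 4 pairs but by less at 264 h. PLP2 fell further behind A7 at 264 h (-1.69 ± 0.29 SE, adjusted p = 0.022). The others were the adaptor GRAP2 (-0.82), the neuropeptide gene ADCYAP1 (-1.25), the amino acid transporter SLC7A8 (-0.64), the ectoenzyme CD38 (0.60) and the deiodinase DIO2 (0.66).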

How the data were processed

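RNA sequencing libraries of TF-1 clones were made with a stranded mRNA kit, per the labels' protocols. The authors deposited raw read counts per gene. Per the file headers, these are whole-number counts from featureCounts 1.6.2 in paired-end mode over exons of GENCODE release 19, with no strand option, so overlapping or antisense genes cannot be told apart. The submitters' processing notes list STAR 2.6.1d, cutadapt, FastQC and DESeq2 beside featureCounts, with the hg19 (GRCh37) build, and coordinates are those of the deposited table. Groups came from the clone, treatment, time and batch labels. The members, gene lists and named-gene rule were chosen with earlier results of these data known.

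From the counts, edgeR 4.0.16 (R 4.3.3) fitted the 8 libraries with TMM scaling, filterByExpr by clone, harvest and clone terms and a robust quasi-likelihood test, with Benjamini-Hochberg adjustment over all genes tested. Genes were called at an adjusted p under 0.05, with 3 residual degrees of freedom, or 2 for interactions. CPM were scaled by TMM over the 25 libraries that passed quality control, and log2 CPM used a prior count of 2. Bin and run levels are medians of the log2 CPM difference over coding genes less the median of all tested coding autosomal genes. Grid bins were 20 Mb with at least 15 genes, and runs were at least 6 genes with a running median beyond 0.4 in size. The clone level of each run set every clone against the mean of the other 3. Named genes were the 12 largest rises and falls outside the grid segments with 1 CPM in the higher clone, the leading genes of each segment, the 2 largest called members of each list and the leading interaction genes. Others were named after their values were seen. Only the main fit of C4 against A7 was tested on simulated counts, not the interaction fits or the alternatives. Alternatives were DESeq2 1.42.0, other scaling, filters and sample sets. Results for some genes are not reported here.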

Additional observations from a re-analysis of the deposited data

Results flagged for a closer look

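BCHE stood apart at 72 h in DMSO, where C4 minus A7 was -6.91 on the log2 CPM scale and C4 had no count. CD9, a tetraspanin gene on 12p, stood apart at 264 h in Aza with a difference of 2.03, the highest of its 4 pairs. XAF1 stood apart at 72 h in Aza with a difference of -1.12, the lowest of its 4 pairs. These are 3 of 91 sets of 4 differences in which one value lay far from the nearest of the others, and chance gives about 1 in 20.

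The labelled pre-treatment pair read -0.53 in the chromosome 12 segment and -0.50 in the chromosome X segment, where all 4 later pairs were above 0. This difference was not tested.

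The clone difference depended on treatment for KIT, by 0.77 between Aza and DMSO. It depended on time for 9 genes, by 264 h minus 72 h differences of -1.69 for PLP2, -1.60 for HEMGN, -1.25 for ADCYAP1, -0.82 for GRAP2, -0.71 for HBB, -0.64 for CD36, -0.64 for SLC7A8, 0.66 for DIO2 and 0.60 for CD38. These were interaction terms called in the fit of 8 libraries. With all batch 1 post-treatment libraries in the fit, edgeR called none of them.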

How the results depend on the processing

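The count of 3157 genes called changed by over 1.5 times with the 72 h pairs alone (1693), the Aza pairs alone (1173), DESeq2 (1808), no harvest term (514) and the pre-treatment pair added as labelled (1). The 279 calls at 2-fold became 169 under a filter of 1 CPM, 170 without the harvest term and 0 with the pre-treatment pair. The 2946 calls outside the grid segments became 1933 at 264 h alone, 1509 at 72 h alone, 1004 in Aza alone, 1624 with DESeq2, 380 without the harvest term and 1 with the pre-treatment pair. Leaving out 1 pair gave 2117 to 3188 calls, 277 to 304 at 2-fold, and 1920 (without 264 h DMSO) to 2985 outside the segments. For Aza and time interactions, DESeq2 called 0 and 3, all batch 1 post-treatment libraries 0 and 0, and no filter 11 and 31. The running median found 7 stretches where the grid found 2. The labelled pre-treatment pair alone reversed the chromosome 12 level to -0.53 and the chromosome X level to -0.50. Taking out the bin level turned the sign of CHD4 (-0.16), DKC1 (-0.18) and RPL10 (-0.10), which differed by less than their bins. KLF1 and THBS1 lost their calls with all batch 1 post-treatment libraries (adjusted p = 0.0807 and 0.107). The cause of the other changes was not tested. The harvest term pairs each C4 library with the A7 library of the same harvest, so the fit without it is the unpaired one.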

Other observations

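Further gene groups moved in both directions between the clones. Of 15 D cyclins and cyclin-dependent kinase inhibitors, 5 were called higher in C4 and 3 lower (53.3% called, against 19.7% of all genes tested). The inhibitors CDKN1B (0.68), CDKN1C (0.76), CDKN2B (0.44) and CDKN2C (0.27) and the cyclin CCND3 (0.11) were higher, while the cyclins CCND1 (-0.27) and CCND2 (-0.50) and the kinase CDK6 (-0.21) were lower. Of these, CDKN1B and CCND2 lie on 12p. Of 22 TGF-beta and BMP genes (36.4% called), 4 were called higher, led by the latent binding protein LTBP1 (0.52), and 4 lower, among them ID1 on 20q.

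Of 8 stroma, epithelium and endothelium markers tested, 3 were called higher and none lower (37.5% called, against 19.7% of all genes tested). They were the intermediate filament VIM (0.32), the matrix protein SPARC (0.32) and the receptor TEK (0.26). Of 7 lymphoid markers tested (42.9% called), the T-cell receptor subunit CD3D (-1.58) and the B-cell receptor subunit CD79B (-0.82) were called lower and the factor TCF7 (0.39) higher. CD3D averaged 1.12 CPM in C4 and 3.35 CPM in A7, against 16.9 CPM in F4 and 51.2 CPM in A12. Of 3 clustered protocadherins tested (66.7% called), 2 were called higher, PCDHB5 (0.95) and PCDHGA11 (1.06), both near 1 CPM in C4. Of 7 genes that cut or sort class II peptides and chains (71.4% called), the cathepsins CTSB (0.25) and CTSL (0.15) were higher. CTSS (-0.17), the protease LGMN (-0.21) and the ubiquitin ligase MARCHF1 (-0.31) were lower. Leaving out 1 pair ended the calls of LTBP1 (adjusted p = 0.0879 without 72 h DMSO), PCDHB5 (0.0849 without 264 h Aza) and PCDHGA11 (0.066 without 264 h DMSO). Without the 264 h DMSO pair the calls of CTSL (adjusted p = 0.0574), CTSS (0.141), LGMN (0.186) and MARCHF1 (0.0595) ended too.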
